A study of Mus musculus with 2 samples.

Results

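The genes described here encode the receptor for leptin and the proteins that carry or curb its signal: Lepr, Leprot, Jak2, Stat3, Stat5a, Stat5b, Socs3, Ptpn1 and Sh2b1. They were chosen by name, as the core of this pathway, and all 9 were found among the 21938 protein-coding genes of the GENCODE M21 annotation of the mouse genome GRCm38 on chromosomes 1 to 19, X and Y. Among these, 3 genes (Lepr, Stat5a and Socs3) had a TET2 peak at a transcription start site (TSS), and Ptpn1 had one inside the gene, far from its TSSs. The other 5 genes had no peak at a TSS or between their ends.

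The study addressed how TET2 and leptin are linked in adipocytes. The stromal vascular fraction of mouse inguinal white adipose tissue was plated, and the adherent adipose-derived stem cells (ASCs) were differentiated at passage 3 with 0.5 mM IBMX, 1 μM dexamethasone and 10 μg/mL insulin, then kept in insulin. The methods text gives another insulin dose for the induction step than the labels used here. Chromatin fixed with 1% formaldehyde for 10 min gave 1 library immunoprecipitated with a TET2 antibody and 1 input library without immunoprecipitation. Both came from cells treated alike, with no comparison of genotype, diet or dose, and the strain, age and number of the donor mice of these cells are not given in the sources used here. Since there is 1 TET2 library, no value has a replicate error, and no test between groups could be made. The adipocyte identity of the cells could not be checked against marker RNA, because a peak list holds no expression values.

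Leptin is a hormone that adipocytes secrete. When it binds its receptor, the associated kinase JAK2 phosphorylates the receptor and itself, STAT3 and STAT5 proteins are recruited, phosphorylated and moved to the nucleus, and one of the genes that STAT3 switches on, Socs3, encodes an inhibitor that closes the loop. The pathway is best known from hypothalamic neurons that control appetite, and it is also used in peripheral cells. TET2 is an enzyme that oxidises methylated cytosine in DNA, mostly at CpG dinucleotides, and it has no DNA-binding domain of the kind that reads a sequence motif.

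The authors deposited 14103 peaks, intervals in which the TET2 library exceeded the input, each with the −log10 p of their peak caller. This value ran from 3.07 to 335.2 with a median of 6.21, and the length of a peak from 375 to 3392 bp with a median of 426 bp. Of the peaks, 15.5% had a value under 5, the one at Stat5a among them, which is below what the p setting stated for peak calling would allow, and the sources used here do not say why. The list gives no read totals, so the depth behind a peak is unknown. A peak was placed by its midpoint, and it was counted at a promoter when the midpoint lay within 1 kb of any TSS of the gene. By that rule 41.3% of the peaks lay at a TSS of some gene. Distances are given from the TSS to the midpoint, negative upstream of the TSS and positive downstream of it.

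Sequence from GRCm38 is shown for the receptor pair, because the Lepr promoter held a peak and the Leprot promoter did not. Each stretch runs 5′ to 3′ on the plus strand, from 270 bp before the outermost TSS to 30 bp after it, with CpG dinucleotides in capitals. The first is chr4:101717134-101717433 and the second chr4:101647448-101647747.
Lepr: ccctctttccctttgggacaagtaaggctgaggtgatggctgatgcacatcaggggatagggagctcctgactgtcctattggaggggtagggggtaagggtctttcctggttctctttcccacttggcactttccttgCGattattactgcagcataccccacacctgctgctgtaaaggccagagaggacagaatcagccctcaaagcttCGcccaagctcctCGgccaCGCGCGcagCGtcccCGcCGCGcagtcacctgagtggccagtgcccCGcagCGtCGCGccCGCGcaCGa
Leprot: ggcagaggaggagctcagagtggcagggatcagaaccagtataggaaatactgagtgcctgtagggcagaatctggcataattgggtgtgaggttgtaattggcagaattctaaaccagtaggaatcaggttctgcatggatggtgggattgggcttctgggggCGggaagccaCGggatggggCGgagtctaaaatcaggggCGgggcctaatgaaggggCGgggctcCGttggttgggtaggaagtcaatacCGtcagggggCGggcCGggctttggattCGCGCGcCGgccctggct
The Lepr stretch held 17 CpGs and the Leprot stretch 13. In the Lepr stretch the TET2 peak covered the last 158 bases, which held 16 of the CpGs, while the 142 bases before the edge of the peak held 1. In the Leprot stretch no base was inside a peak.

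The parts of the Stat5a and Socs3 peaks that lie in introns or coding sequence are shown because these peaks sit downstream of the TSS, inside the gene. CpGs are again in capitals. The Stat5a stretch is chr11:100860577-100860859 on the plus strand, and both Socs3 stretches are on the minus strand, the intron at chr11:117968319-117968478 and the start of the coding sequence at chr11:117968032-117968230.
Stat5a intron: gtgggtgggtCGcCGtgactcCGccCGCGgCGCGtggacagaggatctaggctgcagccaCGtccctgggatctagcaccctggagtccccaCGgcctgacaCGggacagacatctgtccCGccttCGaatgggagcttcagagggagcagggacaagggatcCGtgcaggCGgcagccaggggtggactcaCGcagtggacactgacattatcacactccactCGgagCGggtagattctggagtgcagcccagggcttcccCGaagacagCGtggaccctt
Socs3 intron: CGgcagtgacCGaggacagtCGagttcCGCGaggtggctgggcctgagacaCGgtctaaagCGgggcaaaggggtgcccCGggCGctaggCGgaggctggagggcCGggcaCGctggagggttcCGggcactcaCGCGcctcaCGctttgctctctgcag
Socs3 coding exon: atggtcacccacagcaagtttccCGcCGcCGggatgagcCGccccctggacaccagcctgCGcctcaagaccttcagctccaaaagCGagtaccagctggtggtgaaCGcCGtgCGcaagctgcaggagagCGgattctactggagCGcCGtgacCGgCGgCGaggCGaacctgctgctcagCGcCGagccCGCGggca
The Stat5a intron part held 19 CpGs in 283 bases, the Socs3 intron part 16 in 160 bases and the Socs3 coding part 20 in 199 bases. The coding part opens with the ATG start codon of SOCS3.

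**Figure D1:**
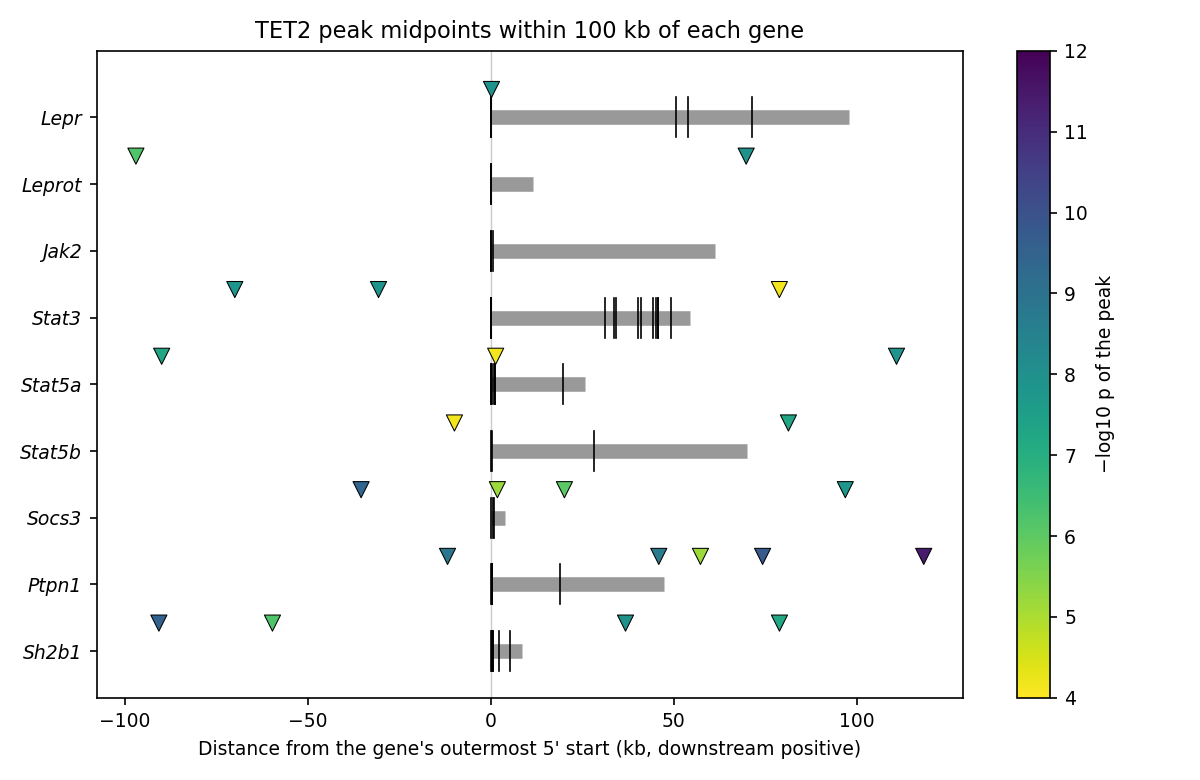
TET2 peaks around the 9 genes, with distance from the outermost 5′ TSS of each gene in kb on the x axis, gene bodies as grey bars, TSSs as black ticks and peak midpoints as triangles coloured by −log10 p. Lepr, Stat5a and Socs3 have a triangle at or just after the TSSs, Ptpn1 has one near its 3′ end, and Jak2 has none within 100 kb.

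Promoter peaks were found at 3 of the 9 genes (33.3%, exact 95% binomial interval 7.49% to 70.1%), while 24.5% of all protein-coding genes had one. The interval, like all others given here, covers counting error only, and it spans the share of all genes. Peaks inside the gene body were found at 4 of the 9 genes (44.4%, interval 13.7% to 78.8%), beside 32.1% of all protein-coding genes. Of the TSSs themselves, 6 of the 51 belonging to these genes (11.8%) had a peak within 1 kb, beside 15697 of 93513 over all protein-coding genes (16.8%). The median distance to the nearest peak was 11831 bp for the 9 genes and 22942.5 bp for all protein-coding genes. At the 1 kb limit, the gene just inside was Socs3 at 931 bp, and the gene just outside was Stat5b at 9948 bp.

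Lepr, which encodes the leptin receptor, had the peak nearest to a TSS of all 9 genes. The gene (ENSMUSG00000057722.17) lies at chr4:101717404-101815352 on the plus strand. Its peak, chr4:101717276-101717746, was 471 bp long and had a −log10 p of 7.92. Among all listed peaks 24.7% had a larger value, and among peaks at promoters 31.0% did. The midpoint lay 104 bp downstream of the TSS of transcript Lepr-205 and 107 bp downstream of that of Lepr-202, both protein-coding. The peak covered 128 bp upstream of the gene and 343 bp of the 5′ UTR in exon 1, which is 535 bp long. The remaining 3 TSSs of Lepr, all of transcripts annotated without a coding sequence, lay further into the gene and had no peak, with the one described at −50536, −53857 and −71403 bp from them. Against all protein-coding genes, 91.1% were farther from their nearest peak than Lepr.

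The Lepr peak stood alone in a long stretch of chromosome 4. It was the sole peak inside the 97949 bp of the gene and the sole peak within 100 kb of either end. Of all protein-coding genes, 40.3% had as few or fewer peaks within 100 kb, and the median was 2. The next peak upstream of the gene lay 166698 bp away at the TSS of Dnajc6, and the next downstream lay 272792 bp past the end of the gene, at Pde4b. The midpoints of these flanking peaks were 537438 bp apart.

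Leprot encodes a small membrane protein that limits the amount of leptin receptor at the cell surface, and in humans it shares its promoter with the receptor gene. In the mouse annotation the outermost TSSs of Lepr and Leprot were 69686 bp apart, so the promoters could be scored separately. Leprot (ENSMUSG00000035212.14, chr4:101647718-101659364, plus strand) had 2 TSSs and no peak at either or in its 11647 bp. Its nearest peak was the one at Lepr, 69718 bp downstream. The other peak within 100 kb lay 97012 bp upstream, at the TSS of Dnajc6, with a −log10 p of 6.21. Both genes thus have the same nearest peak, at one promoter of the pair.

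**Figure D2:**
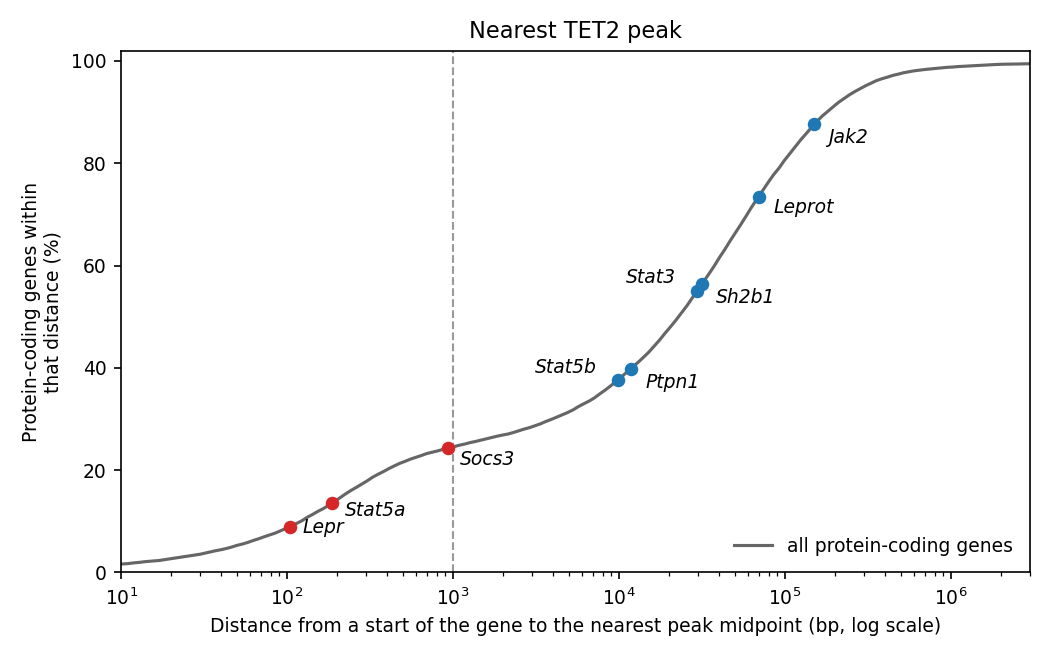
Share of all protein-coding genes (y axis, percent) whose nearest TET2 peak lies within the distance on the x axis (bp, log scale), with the 9 genes as points on the curve, red with and blue without a promoter peak, and a dashed line at 1 kb. Lepr (104 bp), Stat5a (187 bp) and Socs3 (931 bp) lie left of the line, and Jak2 (150122 bp) lies farthest right.

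Jak2, which encodes the kinase bound to the receptor, was the gene farthest from any peak. The gene (ENSMUSG00000024789.13, chr19:29251828-29313080, plus strand) is 61253 bp long and had no peak inside it or within 100 kb, which was also the case for 17.6% of protein-coding genes. Its nearest peak lay 150122 bp upstream, at the TSS of Rcl1, with a −log10 p of 6.47. On the other side the nearest peak lay 145470 bp past the end of the gene. The stretch between these peaks was 356844 bp, and 12.4% of protein-coding genes were farther from their nearest peak. The promoter without a peak was dense in CpGs, with 131 in the kilobase around the TSS of Jak2-203.

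The transcription factor genes Stat5b, Stat5a and Stat3 lie side by side on chromosome 11. From the end of Stat5b to the 5′ end of Stat3 the cluster spans 158810 bp, and it held 1 peak, that of Stat5a. Stat5a and Stat3 overlap by 72 bp at their 3′ ends, and the 5′ ends of Stat5a and Stat5b are 8627 bp apart on opposite strands. The same peak was therefore the nearest one for all 3 genes.

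Stat5a (ENSMUSG00000004043.14, chr11:100859351-100885169, plus strand) encodes a factor that cytokine and hormone receptors activate, with known roles in fat cell formation. Its peak, chr11:100860485-100860859, was 375 bp long, the shortest length in the list, and its −log10 p of 4.15 was low: 89.6% of all peaks and 95.4% of promoter peaks had a larger value. The 7 TSSs of the gene fell on both sides of the 1 kb limit. The midpoint lay 187 bp after the TSS of Stat5a-207, 188 bp after that of Stat5a-203 and 327 bp after that of Stat5a-206. It lay 1016, 1262 and 1321 bp after the TSSs of Stat5a-202, Stat5a-204 and Stat5a-201, which start further upstream. The peak thus belonged to the internal TSSs of the gene by this rule and not to the outermost ones. It covered 92 bp of 5′ UTR and 283 bp of intron. With the outermost TSS alone, or with peaks of −log10 p of at least 5, Stat5a had no promoter peak.

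Stat5b (ENSMUSG00000020919.11, chr11:100780731-100850724, minus strand), the close relative of Stat5a, had no peak at its 3 TSSs or in its 69994 bp. The Stat5a peak was its nearest, 9948 bp upstream of Stat5b-201. A second peak lay 53146 bp downstream, near Ghdc, with a −log10 p of 7.28. Among the TSSs of RefSeq, a predicted one places the Stat5a peak 1668 bp upstream of Stat5b, still outside the limit.

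Stat3 (ENSMUSG00000004040.16, chr11:100885098-100939540, minus strand), the main carrier of the leptin signal to the nucleus, had the most TSSs of the 9 genes, 14, and no peak at any of them or in its 54443 bp. The smallest distance, 29640 bp, was from the Stat5a peak to the TSS of Stat3-205, a transcript with a retained intron near the 3′ end of the gene. From the outermost TSS, the nearest peak lay 30696 bp upstream, where Cavin1, a gene for a coat protein of adipocyte caveolae, has a peak 315 bp after a TSS with a −log10 p of 7.86. The third peak within 100 kb was at the TSS of Atp6v0a1, at −69977 bp. The peaks nearest to the Stat3 promoter were therefore those of neighbouring genes.

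Socs3 encodes the inhibitor that binds the receptor and JAK2 and that leptin itself induces. The gene (ENSMUSG00000053113.3, chr11:117966079-117970047, minus strand) is the shortest of the 9, with 3969 bp. Its peak, chr11:117968032-117968478, was 447 bp long and had a −log10 p of 5.21, below the median, and 69.9% of all peaks had a larger value. The midpoint lay 931 bp downstream of the TSS of Socs3-201, the protein-coding transcript, and 1196 and 1792 bp downstream of the TSSs of the noncoding transcripts. From the curated TSS of RefSeq the distance was 1111 bp, which puts the peak outside the 1 kb limit. The peak was not upstream of Socs3 but across the junction of its intron and exon 2, where it covered 160 bp of intron, 88 bp of 5′ UTR and the first 199 bp of the 675 bp coding sequence. By position it was an internal peak of a short gene. With limits of 200 or 500 bp, or with the outermost TSS alone, Socs3 had no promoter peak.

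Socs3 also had 3 further peaks within 100 kb. One lay 35462 bp upstream, inside Pgs1, a gene of cardiolipin synthesis, and had a −log10 p of 9.39. Another lay 19256 bp downstream with a value of 6.06, and the third at 96025 bp with a value of 7.79, at the TSS of Tha1. The peak inside Socs3 had the lowest −log10 p of these 4.

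Ptpn1 encodes the phosphatase PTP1B, which removes the phosphate groups from JAK2. The gene (ENSMUSG00000027540.13, chr2:167932057-167979385, plus strand) had no peak within 1 kb of its 5 TSSs but one inside the gene, chr2:167977728-167978205, with a −log10 p of 8.67. This was the largest value among the peaks inside the 9 genes, and 16.3% of all peaks had a larger one. All 478 bp of the peak lay in the 3′ UTR, within exon 9 of Ptpn1-201, 26918 bp from the closest TSS and 45909 bp from the 5′ end. Upstream, the nearest peak to a TSS was chr2:167919997-167920456, in an intergenic stretch 11831 bp before Ptpn1-206, with a −log10 p of 8.85. With 5 peaks within 100 kb, Ptpn1 had more than any of the other 8 genes, and 91.9% of protein-coding genes had as few or fewer. The remaining 3 lay downstream of the gene, at 38306, 55288 and 99329 bp from a TSS of Ptpn1, with −log10 p values of 5.18, 9.80 and 11.4. The first and second of these were inside Ripor3.

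Sh2b1 encodes an adaptor that binds JAK2 and raises its activity. The gene (ENSMUSG00000030733.10, chr7:126466994-126475424, minus strand) had 9 TSSs and no peak at any of them or in its 8431 bp. Its nearest peak lay 31581 bp downstream, 437 bp after a TSS of Rabep2, and had a −log10 p of 7.92, the same value as the Lepr peak. The other 3 peaks within 100 kb lay 59689 bp upstream, at −90736 bp at the TSS of Eif3c, and at 73659 bp at Nfatc2ip. Sh2b1 thus had more peaks in its neighbourhood than the median of 2 for protein-coding genes, and they lay at the TSSs of other genes or between genes.

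**Figure D3:**
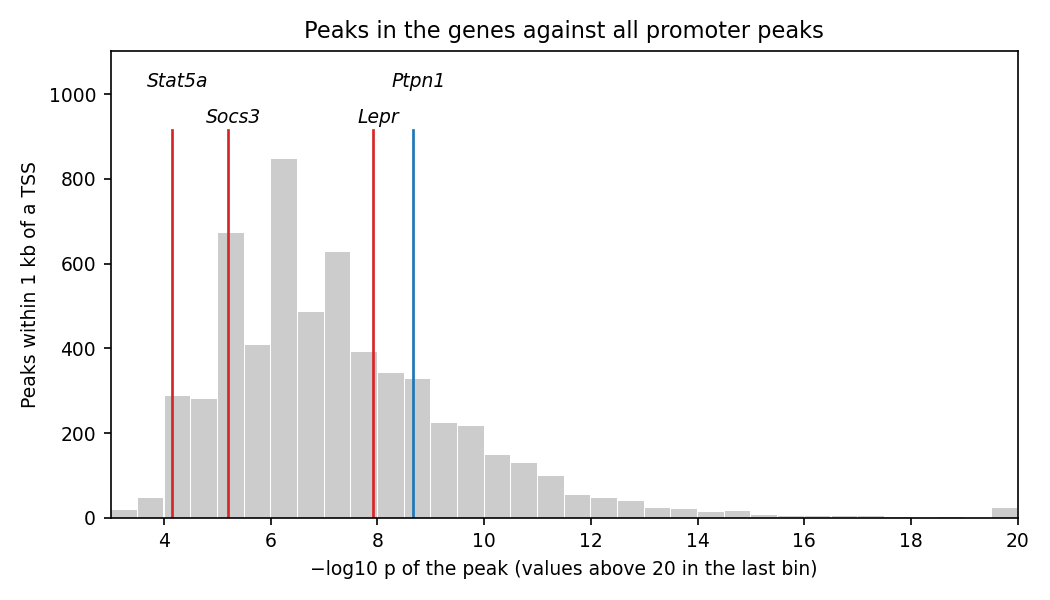
Number of peaks within 1 kb of a TSS (y axis) by −log10 p (x axis, values above 20 in the last bin), with lines at the peaks inside the 9 genes, red for promoter peaks and blue for the Ptpn1 peak in the 3′ UTR. The Stat5a (4.15) and Socs3 (5.21) lines lie left of the promoter median of 6.90 and the Lepr (7.92) and Ptpn1 (8.67) lines right of it.

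The 4 peaks inside the genes differed in sequence. The CpG ratio, the number of CpGs over the number expected from the C and G content, was 0.698 in the Lepr peak, 0.72 in the Stat5a peak and 0.895 in the Socs3 peak, while all promoter peaks had a median of 0.775. The Ptpn1 peak had a ratio of 0.340, below the median of 0.512 for all peaks. Its GC content of 60.9% was close to those of the other 3, which were 62.4% at Lepr, 66.7% at Stat5a and 70.0% at Socs3. No base of the promoter peaks was marked as repeat, while 9.83% of the Ptpn1 peak was. The Ptpn1 peak was thus apart from the 3 promoter peaks in CpG density, repeat content and position.

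The promoters of these genes were also compared by the CpG ratio in the 500 bp on each side of the TSS with the highest ratio of each gene. Protein-coding genes with a promoter peak had a median ratio of 0.788 and those without had 0.493. When the genes were cut into 10 equal groups by this ratio, the share with a promoter peak went from 1.5% in the lowest group to 45.7% in the ninth and 44.2% in the highest. Of the 9 pathway genes, 8 lay above the median ratio of all protein-coding genes, 0.627, and the exception was Lepr with 0.564. Within the set the order did not follow the peaks. The highest ratios belonged to Ptpn1 (0.989), Stat5b (0.929) and Jak2 (0.902), none of which had a promoter peak, while Lepr had the lowest ratio and the promoter peak with the largest −log10 p. In the group of Lepr 26.0% of genes had a promoter peak, in that of Leprot, Stat3 and Stat5a 30.5%, and in that of Socs3 and Sh2b1 40.7%. Summed over the 9 genes, the shares of their groups come to 3.33 genes with a promoter peak, and 3 had one. In each of the groups that hold these genes, most genes had no promoter peak.

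**Figure D4:**
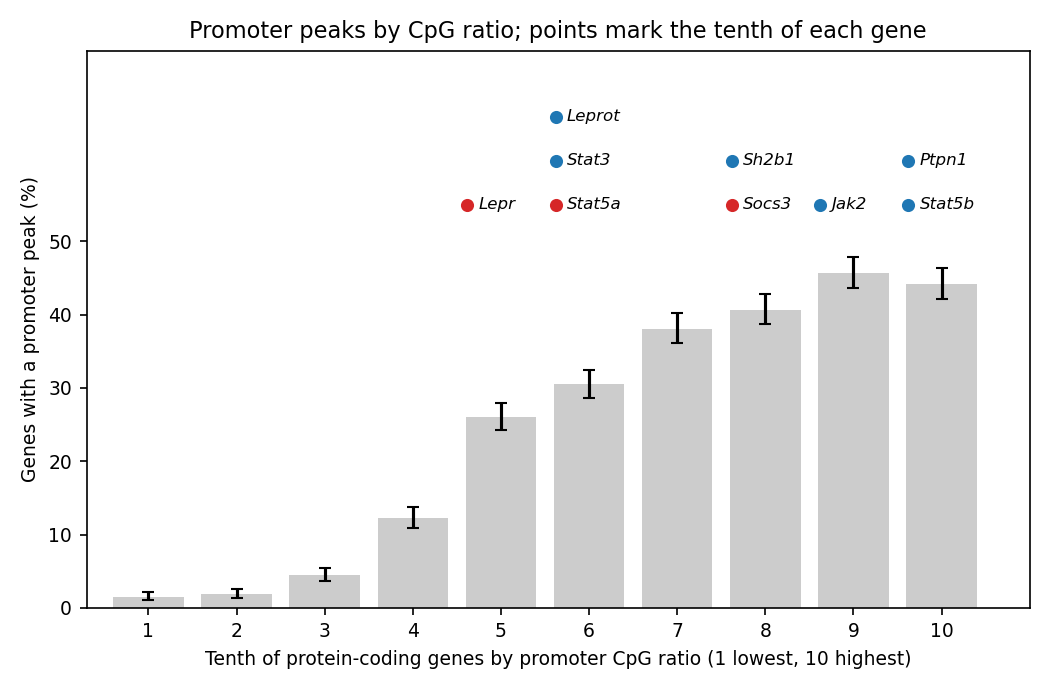
Share of protein-coding genes with a promoter peak (y axis, percent, bars with exact 95% binomial intervals) in 10 equal groups by promoter CpG ratio (x axis, group 1 lowest), with a point above the bar of the group to which each of the 9 genes belongs, red with and blue without a promoter peak. Ptpn1 and Stat5b (group 10) and Jak2 (group 9) have no peak, and Lepr (group 5) has one.

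The length of a gene and its number of TSSs also moved with the background. A peak in the body was found in 16.1% of genes under 5 kb and in 65.0% of those of 100 kb or more, and a promoter peak at 14.4% of genes with a single TSS and at 39.1% of those with 10 or more. Socs3 is in the shortest of these classes and had a body peak. Stat3, with 14 TSSs, is in the class with the most and had no promoter peak. Lepr, Jak2, Stat3 and Stat5b are between 50 and 100 kb long, a class in which 46.2% of genes had a body peak, and of these 4 only Lepr had one. The part of these properties in the peaks of single genes was not tested.

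The STAT motif TTCNNNGAA, the core that STAT dimers bind, was searched on both strands of the promoters in RefSeq (GRCm38.p6), which run from 250 bp before to 50 bp after a TSS. All 9 genes were found in this promoter set, with 13 promoters. These do not cover every TSS of the genes, and the outermost TSS of Stat5a is among those left out. The Socs3 promoter is shown, with the match in capitals, because it was the only one of the 13 with a match. The stretch is chr11:117969337-117969636, minus strand, ending 30 bp after the RefSeq TSS.
Socs3 promoter: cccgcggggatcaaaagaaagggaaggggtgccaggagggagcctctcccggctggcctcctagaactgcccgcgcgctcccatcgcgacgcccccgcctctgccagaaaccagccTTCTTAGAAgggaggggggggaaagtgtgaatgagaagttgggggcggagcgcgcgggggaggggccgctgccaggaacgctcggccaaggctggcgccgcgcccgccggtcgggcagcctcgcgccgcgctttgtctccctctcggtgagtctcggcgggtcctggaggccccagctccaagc
The match, TTCTTAGAA at chr11:117969512-117969520, reads the same in its fixed letters on both strands. It had its start 154 bp before the TSS, and the midpoint of the Socs3 peak lay 1261 bp downstream of it, so the match was outside the peak. Over all 32851 RefSeq promoters of this length, 8.30% held the motif.

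In the peaks themselves, the STAT motif was found in 1 of the 4, that of Stat5a, as TTCCCCGAA at chr11:100860835-100860843 in the intron stretch shown above. In windows of 375 bp around all peak midpoints 8.37% held the motif, and around those at promoters 5.04%. The SP1 motif GGGCGG, bound by a factor of CpG-rich promoters, was found in 8 of the 13 promoters, beside 35.7% of all promoters. Leprot had 6 matches in its promoter, the most of the 9 genes, without a peak. Neither promoter of Sh2b1 had one. The Lepr, Stat5a and Socs3 peaks had 1 SP1 match each and the Ptpn1 peak none, while 62.7% of windows at promoter peaks had at least 1. For both motifs the 4 peaks were searched whole, and those of Lepr, Socs3 and Ptpn1 are longer than the 375 bp windows. No SP1 match shared bases with a STAT match. The C/EBP palindrome TTGCGCAA and the full cAMP response element TGACGTCA had no match in the 13 promoters or the 4 peaks searched. They are rare over all promoters, with 0.183% and 1.79%. These letters were not in these windows, and a match or its absence is a description of the sequence.

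A list of 38 further genes of the pathway and relatives of the 9, written with their roles, was described in the same way. Promoter peaks were found at 14 of them (36.8%, interval 21.8% to 54.0%, beside 24.5% of all protein-coding genes) and body peaks at 18 (47.4%, beside 32.1%). The shares of the CpG groups to which its genes belong sum to 14.1 genes with a promoter peak, close to the 14 found. The −log10 p of the promoter peaks ran from 3.28 to 11.2 with a median of 5.95. With peaks of at least 5, 11 of the 38 genes (28.9%) had a promoter peak, beside 22.1% of all protein-coding genes. Of the 14, 7 lay within 200 bp of a TSS, beside 3123 of the 5384 protein-coding genes with a promoter peak. The largest −log10 p was at Lep, the gene of leptin itself, with 11.2 at −68 bp, above the value of 7.92 at the receptor gene. The ligand gene and the receptor gene both had a peak within 200 bp of a TSS, as did 14.2% of all protein-coding genes.

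Among the genes of the PI3K and MAPK branches, which carry the signal from the receptor to metabolism and growth, 7 of 12 had a promoter peak, beside 24.5% of all protein-coding genes. All 12 lay in the CpG groups 6 to 10, in which 30.5% to 45.7% of genes had a promoter peak. The shares of their groups were not summed for this branch. Peaks were found at the PI3-kinase subunit genes Pik3ca (7.40, −703 bp) and Pik3r1 (6.62, 606 bp). The adaptor genes Grb2 (6.01, 377 bp) and Gab1 (5.74, 197 bp) and the kinase gene Rock1 (5.13, 165 bp) had one as well. Irs1, Irs2, Irs4, Foxo1 and Mapk3 had none. Irs1 and Irs4, genes of insulin receptor substrates, were 295463 and 665215 bp from the nearest peak, and the last was the longest distance on the list.

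In the families of the core genes, the counts below include the 9 and stand beside the same 24.5%. Of the SOCS inhibitor genes 4 of 8 had a promoter peak, with Socs6 at 315 bp (7.54) and Socs7 at 536 bp (6.62) above the 5.21 of Socs3. The SOCS gene left unnamed had 3.28, the lowest value among the 14 promoter peaks of the list. Of the STAT genes 2 of 7 had a promoter peak, Stat5a and Stat2, the latter with 5.89 at −88 bp. Of the SH2B adaptor genes 1 of 3 did, Sh2b2, with 4.73 at 716 bp, so that Sh2b2 and not Sh2b1 held the only promoter peak of this family. Of the PIAS inhibitor genes, whose products bind STAT proteins, 1 of 4 did, Pias3, named for its inhibition of STAT3, with 5.78 at −58 bp. None of the 4 JAK kinase genes and none of the 4 phosphatase genes had a promoter peak. Jak3 was just outside at 1053 bp, while Tyk2, Jak2 and Jak1 were 53153, 150122 and 231397 bp from the nearest peak.

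**Figure D5:**
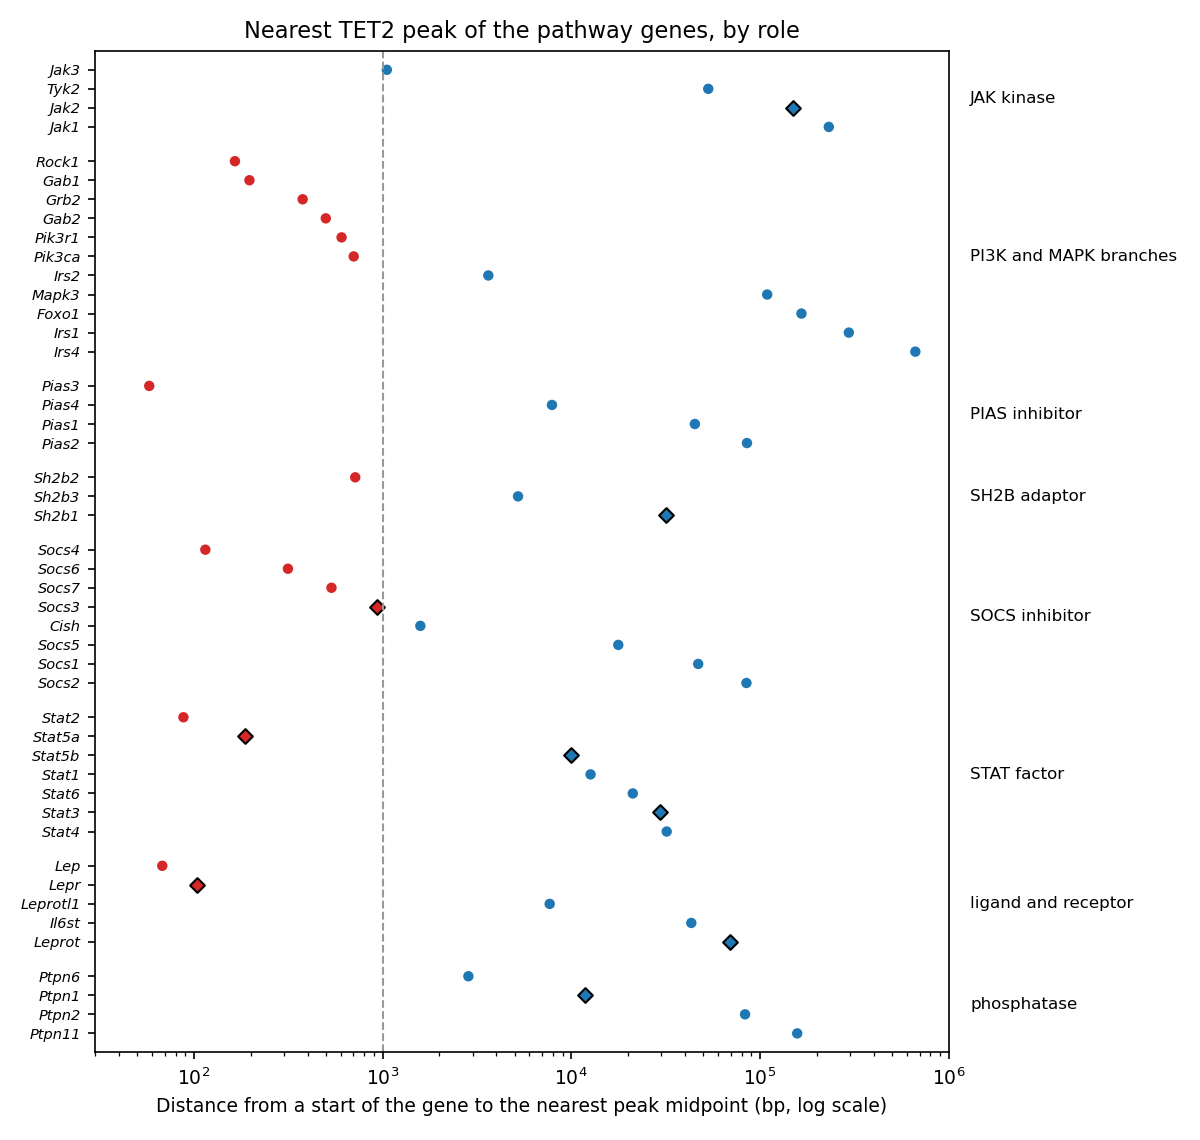
Distance from a TSS to the nearest TET2 peak (x axis, bp, log scale) for the 9 genes (diamonds) and the further genes reported here (circles), grouped by role, red with and blue without a peak within 1 kb (dashed line). The JAK and phosphatase groups lie wholly to the right of the line, and the SOCS group lies on both sides of it, 4 of 8 genes to its left.

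With the 9 genes and the list together, 17 of 47 genes (36.2%) had a promoter peak, beside 24.5% of all protein-coding genes. The genes were chosen by function and are few in each role, so differences between roles are counts and were not tested. Among the 24 listed genes without a promoter peak, 6 had a peak in the body, and the median distance to the nearest peak was 44185 bp. Neither value was taken over all protein-coding genes without a promoter peak. The 32.1% and 22942.5 bp given above include genes with one, so they are no background for these 24.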

How the data were processed

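Per the study's methods and the submitters' processing notes, the authors trimmed reads with NGS QC Toolkit, aligned them with Bowtie and called peaks with MACS2 2.1.0 for the TET2 library against the input. The deposited list gives an interval and the −log10 p of each peak, as computed by the authors' peak caller, and it served here to rank peaks and to set thresholds. It holds no summits, reads or normalised signal. The notes name mm10 (GRCm38) and the methods GRCm39. Peaks were read as GRCm38, where 0 peaks ran past a chromosome end and 0 midpoints fell in an assembly gap, and no coordinates were converted. The input by itself was not used here.

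TSSs and gene bodies came from GENCODE M21, promoter sequences and alternative TSSs from RefSeq. Every peak was set against every protein-coding gene, and the rows of the 9 genes and of the 38 further pathway genes were read from that table. The 9 genes are all named. Of the further genes with a promoter peak, up to 12 with the largest −log10 p are named with their values, except 1 that is counted but not reported here, and neighbouring genes are named where a peak nearest to one of the 9 lies at their TSS. Values given for single genes without a promoter peak, and the neighbours of the other peaks, were chosen after they were seen. The genes and lists were chosen with earlier results of these data known. Shares have exact 95% binomial intervals. With 1 TET2 library no p-value was computed. Alternatives were the distance limit, the TSS set, the placement of the peak and the smallest −log10 p. Placement was tested on simulated data. Tools were Python 3.11.15 with pandas 2.3.3, numpy 2.4.6, pysam 0.24.0, scipy 1.17.1 and matplotlib 3.10.9, and samtools 1.23.1.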

Additional observations from a re-analysis of the deposited data

How the results depend on the processing

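Of 36 counts under an alternative, 27 stayed within 1.5 times the reported count and 9 did not. With the outermost 5′ TSS of each gene alone, 1 of the 9 genes (11.1%), Lepr, had a promoter peak, beside 20.1% of all protein-coding genes. Whether the set was above or below the share of all genes thus rested on Stat5a and Socs3, too few genes to rank the set. With peaks at or above the median −log10 p, 1 of the 9 genes (11.1%), again Lepr, had a promoter peak. So did 6 of the 38 genes of the pathway list (15.8%) and 3588 protein-coding genes (16.4%). With these peaks, body peaks were found in 2 of the 9 (22.2%), Lepr and Ptpn1, beside 21.7% of protein-coding genes. Within 200 bp of a TSS, 7 of the 38 genes of the list (18.4%) and 3123 protein-coding genes (14.2%) had a peak. Without the bases within 1 kb of a TSS, body peaks were found in 1 of the 9 genes, Ptpn1, and in 3511 protein-coding genes (16.0%).

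Among the alternatives that stayed within 1.5 times, Lepr had a promoter peak in all. Socs3 was lost at limits of 200 and 500 bp and with RefSeq TSSs, leaving 2 of the 9 genes (22.2%). Of all protein-coding genes, 14.2% had a promoter peak at 200 bp and 21.6% at 500 bp. No such share was taken with RefSeq TSSs. Stat5a was lost with −log10 p of at least 5, leaving 2 (22.2%), beside 22.1% of all protein-coding genes. Of 27 distances under an alternative, 6 moved by more than 1.5 times. With peaks of at least 5, the nearest peak was 89969 bp from Stat5a and 53146 bp from Stat5b. From the outermost TSS, it was 1321 bp from Stat5a and 1792 bp from Socs3. Measured to the edge of the peak, it was 0 bp for Lepr and Stat5a.

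No paired analysis was possible because the experiment has a single TET2 library with its input, and nothing here came from a test. Leaving out a replicate was not possible either. The lack of a peak says only that none was listed at the depth of these libraries, which the list does not give, so lower enrichment at the 6 genes without a promoter peak was not detectable here.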
